A study of Mus musculus with 12 samples.

Results

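The 10 genes described here had transcripts that were among those most raised by sulforaphane in mouse melanoma cells. They are Apod, Hdc, Chrnb1, Gpr176, Slc17a8, Prkg2, Psd2, Ptchd1, Tmem179 and Tmem59l. They were chosen for large increases with sulforaphane (SFN), taken here as increases over control, and for lying outside the classic stress response, so their difference between SFN and control is a description and not a test. They are 10 of 24421 gene symbols in the count files and 10 of the 11638 genes that were expressed highly enough to be tested. They were grouped as neural and secretory genes, and by their known roles that name covers them unevenly. Apod encodes a secreted protein, Slc17a8, Gpr176, Ptchd1 and Tmem59l are best known from the nervous system, and Chrnb1 is a subunit of the acetylcholine receptor of skeletal muscle.

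B16F10 is a pigmented melanoma line of the mouse, obtained here from ATCC, and RNA was sequenced from 12 libraries, 3 in each of the 4 groups, which the study describes as independent biological repeats of the same line. Control cells received the solvent DMSO, at 0.025% by the labels, while the methods of the study give a lower percentage for DMSO wells. The methods state that SFN was dissolved in water, and the labels give no DMSO value for the treated groups. Whether SFN and control also differed in solvent is not known. For DAC single treatment, cells received 25 nM 5-aza-2'-deoxycytidine, an inhibitor of DNA methyltransferases, for 72 h with a change of medium after 24 h. For SFN single treatment, cells were left untreated for 24 h and then received SFN for 48 h, at 5 µM by the methods of the study, while the label of this arm writes 5 nM. For combination treatment (DAC+SFN), cells received 25 nM DAC for 24 h and then 25 nM DAC with 5 µM SFN for 48 h. If the label of the SFN arm were right, SFN single and combination treatment would differ in SFN dose as well as in DAC, while the comparison of combination treatment with DAC holds the DAC dose fixed.

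SFN is an isothiocyanate from cruciferous vegetables that reacts with cysteines of the protein Keap1, which lets the transcription factor Nrf2 enter the nucleus and bind antioxidant response elements. The genes described here are not among the textbook targets of that factor. Several act at synapses or in signalling between cells: histamine, acetylcholine and glutamate are transmitters made, sensed or packed by their products, and melanocytes, from which melanoma arises, come from the neural crest, the embryonic tissue that also gives rise to peripheral neurons and glia.

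Between 15880957 and 27291436 counts were assigned to genes per library (median 21949304), so that 1 CPM (count per 1e+06 counts) stood for 16 to 27 counts. All CPM values below were scaled with TMM factors, which even out differences in library composition. Of the 10 melanocyte markers, all were expressed, with a summed level of 25200 to 31200 CPM in control and 22500 to 31300 CPM in the other groups. Of 34 pan-neuronal genes, 20 never exceeded 10 counts in a library, while 11 were expressed highly enough to be tested. Among these, the group means were 775 to 975 CPM for Syt4 and 168 to 211 CPM for Tubb3. Markers of mast cells, the best known source of Hdc, were absent or nearly so, with 5 of 8 at 0 in every library, no more than 2 counts for the others apart from Gata2, and a summed level of 3.99 to 6.03 CPM over the 12 libraries. The defining muscle genes Myod1 and Myf5 were at 0 in every library. In bulk RNA, more transcript per cell and a larger share of cells with the transcript cannot be told apart.

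The sequences just upstream of the annotated starts are shown for 6 of the genes, 5 because they hold a short motif of a factor class related to stress or cAMP signalling and 1, Apod, because the gene with the highest fold change lies at a start with few CpG sites, the sites at which DAC acts on methylation. RefSeq promoters (GRCm38.p6, the mm10 assembly) were found for 8 of the 10 genes, with 9 starts because Slc17a8 has a pair of them, and none for Prkg2 and Psd2. In the first 5 sequences the capitals mark the core of the antioxidant response element (TGACNNNGC on either strand) or, in Tmem59l, the cAMP response element TGACGTCA. In the Apod sequence the capitals mark CpG sites. Each run is 130 bases, ends at the base before the RefSeq start and reads 5′ to 3′ along the gene, and all 6 genes are on the minus strand. Their positions are chr2:118373420-118373549 for Gpr176, chr10:89621250-89621379 for Slc17a8, chr11:69795938-69796067 for Chrnb1, chr12:112511161-112511290 for Tmem179, chr8:70487349-70487478 for Tmem59l and chr16:31314809-31314938 for Apod.
Gpr176: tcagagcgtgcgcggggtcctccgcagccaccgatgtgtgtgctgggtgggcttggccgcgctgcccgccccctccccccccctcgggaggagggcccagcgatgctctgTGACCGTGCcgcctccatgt
Slc17a8: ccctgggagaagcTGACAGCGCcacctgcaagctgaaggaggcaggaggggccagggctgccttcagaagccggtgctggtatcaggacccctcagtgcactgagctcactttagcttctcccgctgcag
Chrnb1: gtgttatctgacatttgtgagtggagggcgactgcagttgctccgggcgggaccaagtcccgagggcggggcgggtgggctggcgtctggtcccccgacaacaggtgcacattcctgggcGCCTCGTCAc
Tmem179: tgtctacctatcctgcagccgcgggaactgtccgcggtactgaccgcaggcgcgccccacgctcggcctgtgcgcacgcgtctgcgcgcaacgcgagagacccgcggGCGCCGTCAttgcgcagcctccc
Tmem59l: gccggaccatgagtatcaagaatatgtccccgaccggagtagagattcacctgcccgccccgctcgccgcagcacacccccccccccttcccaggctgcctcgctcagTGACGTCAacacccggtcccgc
Apod: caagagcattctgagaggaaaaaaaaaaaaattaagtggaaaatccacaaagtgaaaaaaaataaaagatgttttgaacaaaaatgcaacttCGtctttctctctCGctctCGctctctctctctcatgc

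The antioxidant response core lay in 4 of the 9 windows of 250 bases upstream of a start, against 10.2% of all 32851 RefSeq promoters searched in the same way. Its first base stood 20 bases upstream of the start in Gpr176 (TGACCGTGC), 117 in Slc17a8 (TGACAGCGC), 23 in Tmem179 (GCGCCGTCA, the opposite strand) and 10 in Chrnb1 (GCCTCGTCA, the opposite strand). The cAMP element of Tmem59l, 22 bases upstream, has a match in 1.55% of all promoters. The AP-1 motif TGANTCA (6.75% of all promoters), the E-box CATGTG read by the melanocyte factor Mitf (12.3%) and the E-box CACGTG (6.02%) matched none of the 9 windows. These matches are descriptions of letters and no binding was measured.

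CpG sites varied widely among the 9 windows. Over all promoters the quartiles were 2, 6 and 16 sites in 250 bases. Apod had 4, Hdc 2 and the Slc17a8 starts 3 and 5. Gpr176 and Tmem59l had 16 each and Chrnb1 had 14. Tmem179 had 25 and Ptchd1 had 41, and 98.9% of promoters have fewer sites than Ptchd1. The RefSeq starts of Ptchd1, Hdc and Tmem179 lie 487, 621 and 5587 bases inside the gene as drawn by GENCODE M21, and the Slc17a8 start with 3 sites lies 21438 bases inside, so their windows describe an inner start. The gene with the highest difference between SFN and control (Apod) had few CpG sites and the next among the 10 (Ptchd1) had many.

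All 10 genes were expressed at low levels in control cells and at higher mean levels in each treated group. The order of the group means was control, DAC, SFN and DAC+SFN in 9 of the 10, and in Ptchd1 the mean of SFN stood above that of the combination. Neighbours in that order seldom separated: control and DAC did not overlap in 2 genes (Apod and Hdc), DAC and SFN in 2 (Apod and Ptchd1), and SFN and DAC+SFN overlapped in all 10. Per kilobase of exon, the control level of the 10 genes lay between 0.0272 (Hdc) and 1.5 CPM (Tmem179), where the median of 11227 genes was 7.62. Tmem179 was above 16.3% of these genes in control and above 46.5% with combination treatment, when its level per kilobase was 6.9. Apod moved from above 4.45% of genes to above 26.9%, and Hdc from above 0.00891% to above 1.91%.

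**Figure D1:**
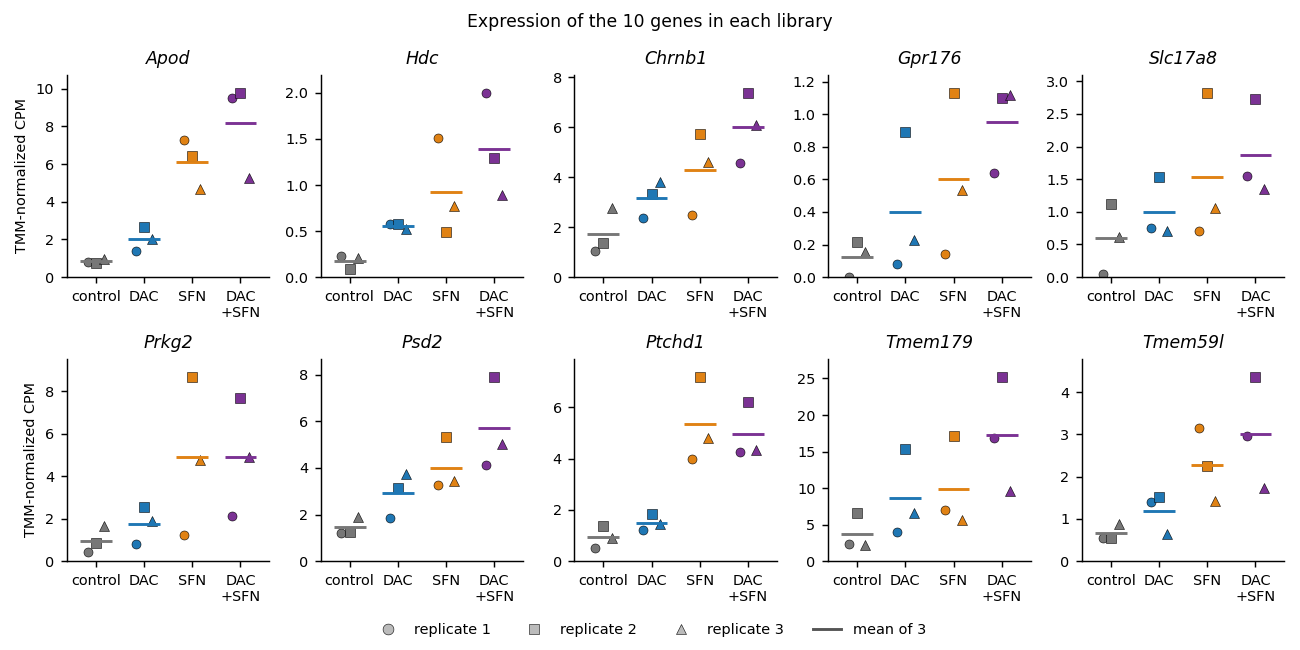
TMM-normalized CPM (vertical axis, from 0, one scale per gene) of the 10 genes in the 12 libraries by treatment group, with replicates 1, 2 and 3 as circles, squares and triangles and the mean of 3 as a bar. Control means lie between 0.123 (Gpr176) and 3.74 CPM (Tmem179), and the SFN and DAC+SFN points overlap in every gene.

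Apod (chr16:31296192-31314808, minus strand, 2577 exon bases) encodes apolipoprotein D, a secreted lipocalin that carries small lipids and is made by glia. In control, replicates 1, 2 and 3 measured 0.828, 0.731 and 0.976 CPM. DAC gave 1.41, 2.68 and 2.02 CPM, SFN 7.29, 6.44 and 4.66 CPM and the combination 9.51, 9.77 and 5.28 CPM. Control, DAC and the groups with SFN formed 3 separate levels with no overlap between them. Compared to control, the log2 difference with SFN was 2.86 (SE 0.28), the highest of the 10 and rank 3 among the 11638 genes. Compared to DAC, combination treatment raised Apod by 1.99 (SE 0.23) on the log2 scale, or 3.98-fold, with an adjusted p of 0.000106 (edgeR's quasi-likelihood test, Benjamini-Hochberg over all genes tested). The adjusted p of this increase stayed under 0.05 with DESeq2, with the other filters, without the replicate block and with each DAC or DAC+SFN library left out. In a test against a 2-fold change itself (glmTreat), none of the 10 genes passed.

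Hdc (chr2:126593667-126619299, minus strand, 6389 exon bases) encodes histidine decarboxylase, the enzyme that makes histamine. Its control libraries held 5, 2 and 4 counts, or 0.23, 0.086 and 0.205 CPM. DAC gave 0.58, 0.574 and 0.524 CPM, SFN 1.51, 0.489 and 0.777 CPM and the combination 2.0, 1.29 and 0.887 CPM. All 9 treated libraries lay above the controls, and the DAC libraries lay close together within the range of the SFN libraries. The log2 difference between SFN and control was 2.36 (SE 0.46). Compared to DAC, Hdc rose with the combination by 1.32 (SE 0.34), with an adjusted p of 0.018, and the groups did not overlap. The call was lost with DESeq2 or without DAC replicate 1.

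The receptors were Chrnb1 and Gpr176. Chrnb1 (chr11:69784036-69795943, minus strand, 2531 exon bases) encodes the β subunit of the nicotinic acetylcholine receptor of muscle. Its control values were 1.06, 1.38 and 2.77 CPM. After DAC it measured 2.36, 3.32 and 3.82 CPM, after SFN 2.49, 5.72 and 4.62 CPM, and after the combination 4.55, 7.37 and 6.07 CPM. The 3 combination libraries stood above every DAC and control library, while control replicate 3 was higher than SFN replicate 1. SFN against control gave a log2 difference of 1.32 (SE 0.24), the smallest of the 10. Compared to DAC, Chrnb1 rose by 0.92 (SE 0.22), or 1.89-fold, with an adjusted p of 0.011, and the call was lost without DAC replicate 2 or without DAC+SFN replicate 1.

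Gpr176 (chr2:118277110-118373419, minus strand, 3899 exon bases) encodes an orphan G protein-coupled receptor known from the circadian clock centre of the brain. It had 0, 5 and 3 counts in control, and its levels there were 0, 0.215 and 0.154 CPM. DAC gave 0.0828, 0.893 and 0.225 CPM, SFN 0.141, 1.13 and 0.532 CPM, and the combination 0.637, 1.1 and 1.12 CPM. Replicate 2 was the highest in control, DAC and SFN, DAC and combination libraries overlapped, and the 3 combination libraries lay above the controls. On the log2 scale, SFN and control differed by 2.24 (SE 0.63), the widest error of the 10. Compared to DAC, Gpr176 rose with the combination by 1.48 (SE 0.48), with an adjusted p of 0.0497, close to the threshold, and the adjusted p ranged from 0.0418 to 0.388 over the alternatives. The call was lost with DESeq2 and without DAC replicate 1, DAC replicate 3 or DAC+SFN replicate 1, and the log2 change was 2.23 without DAC replicate 2. Its exons share 133 bases (3.4%) with Gm29232 on the same strand, and reads there cannot be assigned to one of the pair.

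Slc17a8 (chr10:89574020-89621253, minus strand, 4720 exon bases) encodes VGLUT3, a transporter that loads glutamate into synaptic vesicles. Control libraries measured 0.046, 1.12 and 0.616 CPM. DAC gave 0.745, 1.53 and 0.712 CPM, SFN 0.706, 2.82 and 1.06 CPM and the combination 1.55, 2.73 and 1.35 CPM. Replicate 2 was the highest library of all 4 groups, and control replicate 1 held a single count. On the log2 scale, SFN and control differed by 1.37 (SE 0.4). Between the combination and DAC the log2 difference was 0.93 (SE 0.36), with differences of 0.97, 0.80 and 0.85 in replicates 1, 2 and 3, and the adjusted p of 0.092 did not pass the threshold. Slc17a8 was the 1 gene of the 10 that did not.

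Prkg2 and Psd2 act inside the cell. Prkg2 (chr5:98929773-99037351, minus strand, 5369 exon bases) encodes the membrane-anchored cGMP-dependent protein kinase II. Levels of 0.414, 0.86 and 1.64 CPM in control compared with 0.828, 2.55 and 1.91 CPM after DAC. SFN gave 1.22, 8.66 and 4.78 CPM and the combination 2.14, 7.66 and 4.9 CPM. Replicate 1 was the lowest library in every group, and its combination library lay below the DAC library of replicate 2. Within each replicate number the combination exceeded DAC, by 1.28, 1.55 and 1.32 on the log2 scale. Prkg2 rose by 1.46 (SE 0.28) compared to DAC, or 2.75-fold, with an adjusted p of 0.00344. Its log2 difference between SFN and control was 2.26 (SE 0.31).

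Psd2 (chromosome 18, plus strand, 4785 exon bases) encodes an exchange factor for the small GTPase ARF6, which steers membrane traffic. Control replicates 1, 2 and 3 stood at 1.2, 1.25 and 1.9 CPM. The DAC libraries stood at 1.86, 3.13 and 3.75 CPM, the SFN libraries at 3.25, 5.34 and 3.43 CPM and the combination libraries at 4.14, 7.9 and 5.04 CPM. The SFN libraries lay above the controls, and the combination libraries above the DAC libraries. The log2 difference between SFN and control was 1.47 (SE 0.25). Compared to DAC, Psd2 rose by 0.94 (SE 0.22), or 1.92-fold, with an adjusted p of 0.0115, which was lost without DAC replicate 1, DAC replicate 2 or DAC+SFN replicate 2.

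Ptchd1, Tmem179 and Tmem59l are membrane proteins. Ptchd1 (chrX:155573455-155623814, minus strand, 3005 exon bases) has a Patched domain and is linked to autism and intellectual disability when lost. In control it was found at 0.506, 1.38 and 0.924 CPM and after DAC at 1.2, 1.85 and 1.46 CPM. SFN gave 4.0, 7.19 and 4.82 CPM and the combination 4.28, 6.23 and 4.34 CPM. The 6 libraries with SFN stood apart from the 6 without it. Compared to DAC, Ptchd1 rose by 1.71 (SE 0.19), or 3.27-fold, with an adjusted p of 7.22e-05, and by 1.76, 1.70 and 1.52 in replicates 1, 2 and 3. SFN against control gave a log2 difference of 2.51 (SE 0.2). Its exons share 210 bases (7.0%) with the antisense gene Gm15156, and the strand setting of the counting is not given in the sources used here, so reads there are uncertain.

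Tmem179 (chr12:112500189-112516747, minus strand, 2499 exon bases) encodes a membrane protein of little known function that is found in brain. The controls held 2.39, 6.63 and 2.21 CPM and the DAC libraries 3.93, 15.4 and 6.63 CPM. With SFN there were 7.01, 17.1 and 5.6 CPM, and with the combination 16.9, 25.2 and 9.57 CPM. It had the highest level of the 10 in every group, and its replicate 2 was the highest library of each. On the log2 scale, SFN and control differed by 1.40 (SE 0.24). Compared to DAC, Tmem179 rose by 1.08 (SE 0.21), or 2.11-fold, with an adjusted p of 0.00365, and by 2.08, 0.71 and 0.52 in replicates 1, 2 and 3, so that replicate 1 moved most.

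Tmem59l (chr8:70483867-70487358, minus strand, 1663 exon bases) encodes a brain-enriched relative of the Golgi protein Tmem59. Replicates 1, 2 and 3 measured 0.552, 0.559 and 0.873 CPM in control. After DAC they measured 1.41, 1.53 and 0.637 CPM, after SFN 3.15, 2.26 and 1.43 CPM and after both drugs 2.96, 4.36 and 1.73 CPM. DAC replicate 3 lay below control replicate 3, and the other treated libraries lay above all controls. On the log2 scale, SFN and control differed by 1.77 (SE 0.35). Compared to DAC, Tmem59l rose by 1.35 (SE 0.31), or 2.54-fold, with an adjusted p of 0.0095, without overlap of the groups. The call was lost without DAC+SFN replicate 2.

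The comparison of combination treatment with DAC asks what SFN does to these genes in cells that also receive DAC. It shares no library with SFN compared to control, but all 12 libraries entered 1 fit. The genes were still chosen with earlier results of all 12 libraries known. Hdc and Gpr176 passed the filter with 2 DAC+SFN libraries and 1 SFN library each. In edgeR, 9 genes rose at an adjusted p under 0.05, and 7 of them, Apod, Ptchd1, Hdc, Prkg2, Gpr176, Tmem179 and Tmem59l, rose more than 2-fold, against 0.73% of all genes tested that rose past both thresholds and 9.55% past the first. Psd2 and Chrnb1 rose by less than 2-fold, and Slc17a8 did not pass. With only the DAC and DAC+SFN libraries in the fit, Hdc and Gpr176 dropped out. Of the 8 genes that remained, 5 passed both thresholds. With DESeq2, 5 of the 10 did. All 10 were higher in each of the 3 replicates (21.9% of all genes), and in 6 the groups did not overlap (9.19%). The median log2 change of the 10 was 1.33, from 0.92 in Chrnb1 to 1.99 in Apod, and that of all genes was 0.001.

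The filter of 1 CPM in 3 libraries was passed by 4 of the 10, Hdc, Gpr176, Tmem59l and Slc17a8, only with the help of libraries that received SFN. The other 6 passed it on the 6 libraries without SFN, and of these, 6 rose at an adjusted p under 0.05 and 4 rose more than 2-fold. With no filter and 17403 genes in the fit, the counts over the 10 genes were 9 and 7, against 0.546% of genes past both thresholds. The count of 7 fell to 4 without DAC replicate 1, without DAC+SFN replicate 1 (9 of the 10 genes then passed the filter) or without DAC+SFN replicate 2 (8 did), and to 1 when the replicate number was not used as a block. Without the block, Apod was the 1 gene of the 10 that kept an adjusted p under 0.05.

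**Figure D2:**
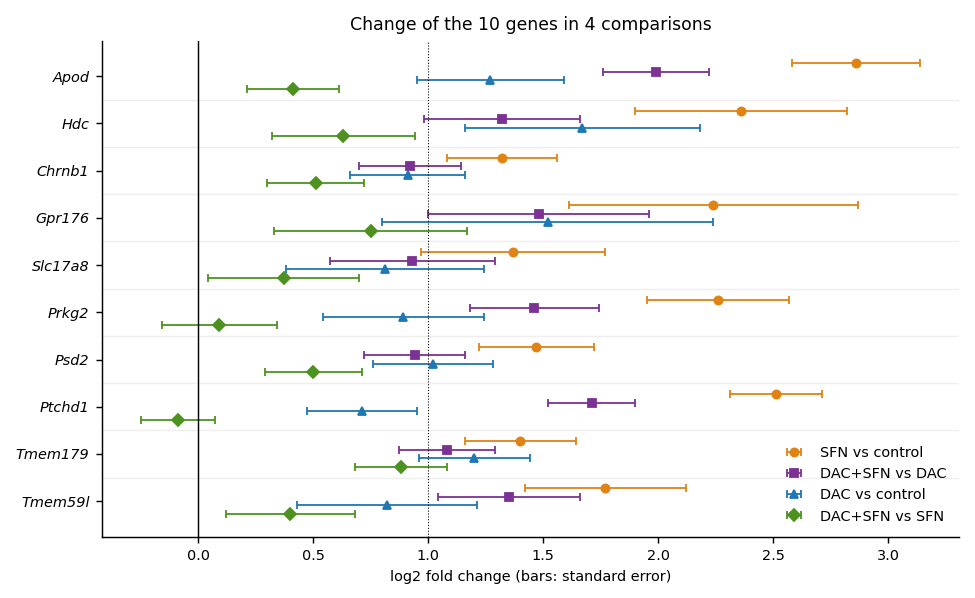
Log2 fold change (horizontal axis) of the 10 genes in 4 comparisons, with bars of 1 standard error and a dotted line at a log2 fold change of 1. The medians of the 10 genes are 2.00 for SFN compared to control (orange), on which they were chosen, and 1.33 for DAC+SFN compared to DAC (purple), and the difference between these was not tested.

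Compared to control, the 10 genes stood at a median log2 difference of 2.00 with SFN, where all genes had 0.004. All 10 passed both thresholds, as 1.08% of all genes did in that direction. The genes were chosen on this comparison and nothing is read from that count. Their ranks by log2 difference among the 11638 genes were 3 for Apod, 5 for Ptchd1, 7 for Hdc, 8 for Prkg2, 9 for Gpr176, 26 for Tmem59l, 50 for Psd2, 57 for Tmem179, 63 for Slc17a8 and 69 for Chrnb1. SFN and control did not overlap in Apod, Ptchd1, Hdc, Psd2 and Tmem59l, while 10.9% of all genes were higher without overlap.

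With DAC single treatment the 10 genes stood between 0.71 (Ptchd1, SE 0.24) and 1.67 (Hdc, SE 0.51) on the log2 scale above control, with a median of 0.97. Apod stood at 1.27 (SE 0.32), Gpr176 at 1.52 (SE 0.72), Tmem179 at 1.20 (SE 0.24) and Psd2 at 1.02 (SE 0.26). Without DAC replicate 2, Gpr176 stood at 0.74. Prkg2 stood at 0.32 without control replicate 2 and at 1.46 without control replicate 3. Slc17a8 stood at 0.42 without control replicate 1 and at 1.13 without control replicate 2. In the fit of all libraries, the other genes gave these values. Chrnb1 stood at 0.91 (SE 0.25), Prkg2 at 0.89 (SE 0.35), Tmem59l at 0.82 (SE 0.39) and Slc17a8 at 0.81 (SE 0.43). Of the 10, 9 were higher in each of the 3 replicates (20.5% of all genes), and in Tmem59l replicate 3 the difference was -0.41. The groups did not overlap in 2, Apod and Hdc (4.09% of all genes). In edgeR, 0 of the 10 passed both thresholds (0.0344% of all genes) and 0 passed the adjusted p alone (0.18%). At an unadjusted p under 0.05 there were 7 (10.1% of all genes), and by DESeq2 2 passed both thresholds, as did 2 in edgeR without DAC replicate 1. The control libraries of this comparison are those on which the genes were chosen, and a low value in these libraries raises both differences, so no p is given.

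Combination treatment gave smaller differences when set against SFN alone. The log2 difference between combination treatment and SFN had a median of 0.45, from -0.09 (SE 0.16) in Ptchd1 to 0.88 (SE 0.2) in Tmem179. Prkg2 stood at 0.09 (SE 0.25), Slc17a8 at 0.37 (SE 0.33), Tmem59l at 0.40 (SE 0.28) and Apod at 0.41 (SE 0.2). Psd2 stood at 0.50 (SE 0.21), Chrnb1 at 0.51 (SE 0.21), Hdc at 0.63 (SE 0.31) and Gpr176 at 0.75 (SE 0.42). In edgeR 0 of the 10 passed both thresholds (0.112% of all genes) and 1, Tmem179, passed the adjusted p alone (0.937%). At an unadjusted p under 0.05 there were 3 (17.8% of all genes), and by DESeq2 0 passed both thresholds and 1 the adjusted p. Without DAC+SFN replicate 2, 1 passed both in edgeR. The groups overlapped in all 10, and 5.23% of all genes were higher without overlap. Of the 10, 5 were higher in each of the 3 replicates (23.4% of all genes). This comparison shares the SFN libraries with the choice of the genes.

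Compared to control, combination treatment left the 10 genes, which were chosen with these control libraries in view, at a median log2 difference of 2.31, between 1.74 in Slc17a8 and 3.26 in Apod. Gpr176 stood at 3.0, Hdc at 2.99, Ptchd1 at 2.42, Prkg2 at 2.34, Tmem179 at 2.28, Tmem59l at 2.16, Psd2 at 1.96 and Chrnb1 at 1.83. All 10 passed both thresholds (2.33% of all genes), and combination and control libraries did not overlap in any of them (15.1% of all genes). All 10 were higher in each of the 3 replicates (27.8% of all genes). Since this comparison shares its control libraries with the choice of the genes, nothing is read from these counts.

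**Figure D3:**
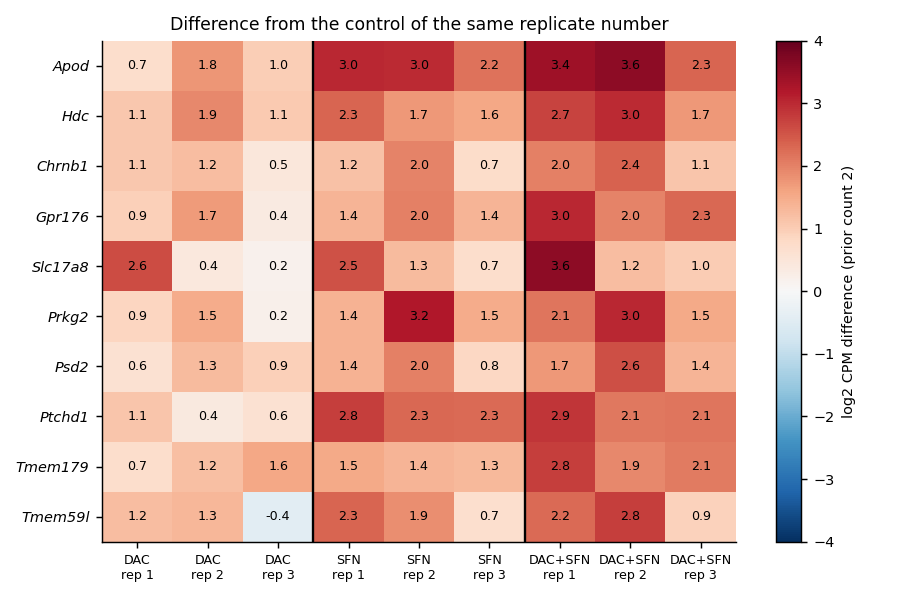
Log2 CPM difference (colour and number, prior count of 2) of each treated library from the control of the same replicate number, for the 10 genes in rows and the 9 treated libraries in columns. A single cell lies below 0, Tmem59l in DAC replicate 3 at -0.41, and the highest values are those of Apod and Slc17a8 with the combination.

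The levels of these genes also varied with the replicate number. Of 40 pairs of gene and group, replicate 2 was the highest library in 26, replicate 1 in 6 and replicate 3 in 8. Replicate 2 was highest in all 4 groups for Ptchd1, Tmem179 and Slc17a8, in 3 for Prkg2 and Gpr176, and in none for Hdc. After the mean of each replicate number was removed, the 45 pairs of the 10 genes correlated across the 12 libraries with Pearson's r between 0.76 and 0.96 (median 0.89), which describes genes that were chosen for the same difference in libraries they share.

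The genes outside the 10 whose levels ran closest to their mean profile over the 12 libraries, on that same scale, were Slc19a2 (r = 0.998), a thiamine transporter, Lif (r = 0.993), a cytokine, Fam212b (r = 0.992), Nppb (r = 0.992), the precursor of brain natriuretic peptide, and Ccnd1 (r = 0.989), cyclin D1. Their log2 differences between SFN and control were 0.61, 2.59, 1.16, 1.26 and 1.27. Taken one by one, Apod ran closest to Gpd1 (r = 0.992), Psd2 to Itga5 (r = 0.991), Prkg2 to Mfsd8 (r = 0.984) and Tmem179 to Dcxr (r = 0.984). For Chrnb1 it was Trib1 (r = 0.982), for Gpr176 Acpp (r = 0.981), for Ptchd1 Acad8 (r = 0.98) and for Hdc the chemokine gene Ccl5 (r = 0.977). Tmem59l ran closest to Dgka (r = 0.972) and Slc17a8 to Slc30a1 (r = 0.948).

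Partners and relatives of the 10 genes were followed in the same fit. In 14 lists of partners, relatives and neural genes there were 256 genes outside the 10, of which 96 were expressed highly enough to be tested. With SFN compared to control, 18 of the 96 rose (18.8%) and 7 fell (7.29%) at an adjusted p under 0.05, where 8.27% of all genes rose and 5.65% fell. With the combination compared to DAC, 17 rose (17.7%) and 5 fell (5.21%), where 9.55% and 6.6% of all genes did. With DAC single treatment 0 of the 96 passed in edgeR, 15 had an unadjusted p under 0.05 and 3 passed by DESeq2. The median log2 change of the 96 was 0.028 with SFN and 0.084 with the combination compared to DAC. The 25 genes called with SFN fell to 14 without control replicate 2 or SFN replicate 2, and the 22 called with the combination to 13 without DAC replicate 1 or DAC+SFN replicate 1. Both counts fell to 0 without the replicate block.

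cGMP signalling is the pathway of Prkg2. With SFN 5 of 10 tested genes rose and 0 fell, where 8.27% of all genes rose. With the combination compared to DAC 4 rose and 0 fell, where 9.55% of all genes rose. It is 1 of 14 lists made with earlier results known, and none of these calls was kept without the replicate block. Nppb, the natriuretic peptide whose receptor makes cGMP, rose by 1.26 (adjusted p = 7.91e-05) with SFN and by 0.94 (adjusted p = 0.000664) with the combination compared to DAC. Pde10a, a phosphodiesterase that breaks down cyclic nucleotides, rose by 0.92 (adjusted p = 0.00131) and 0.94 (adjusted p = 0.00108). Npr3, the clearance receptor of natriuretic peptides, rose by 0.86 (adjusted p = 0.00249) and 0.95 (adjusted p = 0.001), and the receptor cyclase Npr2 rose by 0.49 (adjusted p = 0.00136) and 0.51 (adjusted p = 0.00101). Pde1b rose by 0.80 with SFN (adjusted p = 0.0472), and its difference of 0.57 in the other comparison did not pass (adjusted p = 0.138). These genes make, clear and break down the signal and so act in different directions on it. Prkg1, the other kinase of the family, stood at -0.13 with SFN (adjusted p = 0.172).

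For Chrnb1, 7 of 27 genes of nicotinic receptors and their assembly were tested. Dok7, an adaptor of the neuromuscular junction, rose by 1.25 with SFN (SE 0.25, adjusted p = 0.00456) and by 1.01 with the combination compared to DAC (adjusted p = 0.0113). Chrnb4 fell with SFN, by 0.53 (adjusted p = 0.0277), and Chrnb2 stood at 0.08 (adjusted p = 0.792). The other subunits that a muscle receptor needs beside Chrnb1 did not exceed 7 counts in any library. The muscle filament gene Des, which other cell types also express, rose by 0.54 with SFN (adjusted p = 0.00198) and by 0.37 with the combination compared to DAC (adjusted p = 0.0176).

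For Hdc, 1 of 11 genes of histamine handling was tested, and 9 never exceeded 10 counts. That gene, Maoa, a monoamine oxidase, rose by 0.78 with SFN (SE 0.11, adjusted p = 0.000394) and by 0.79 with the combination compared to DAC (adjusted p = 0.000438). For Slc17a8, 9 of 32 genes of glutamate signalling were tested. Glul, which turns glutamate into glutamine, fell by 0.38 with SFN (adjusted p = 0.0079) and by 0.33 with the combination compared to DAC (adjusted p = 0.0178). In the SLC17 family, Slc17a6 was at 0 in every library, Slc17a7 had 8 to 20 counts, and Slc17a5 stood at -0.18 with SFN (adjusted p = 0.167).

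Few relatives of the other genes passed the test. Of 12 tested ARF6 exchange factors and GTPase-activating proteins, Cyth3 fell by 0.40 with SFN, while Psd stood at 0.11 (adjusted p = 0.9) and Psd3 at -0.23 (adjusted p = 0.541). None of 5 lipocalins and apolipoproteins and none of 8 Patched-domain and Hedgehog genes passed the test in either comparison, with Ptch1 at -0.14 with SFN (adjusted p = 0.492). Tmem59 rose by 0.30 with SFN (adjusted p = 0.00543) and by 0.20 with the combination compared to DAC (adjusted p = 0.038), and Tmem179b stood at -0.13 with SFN (adjusted p = 0.428). Of 7 orphan brain receptors and Gz genes, Gpr37 fell by 0.42 with the combination compared to DAC (adjusted p = 0.0334).

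**Figure D4:**
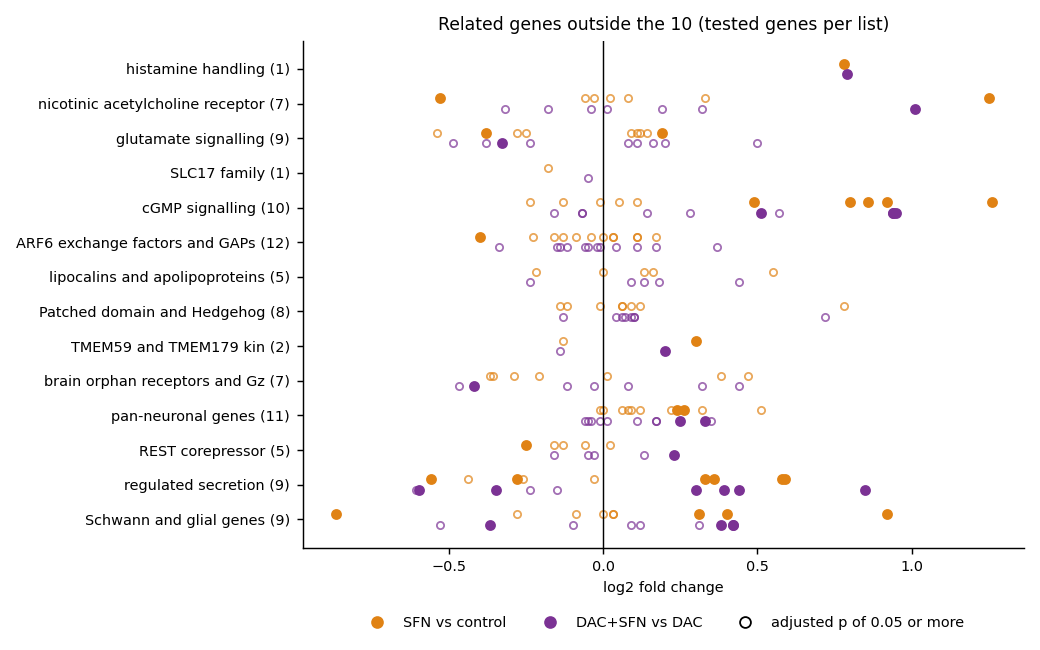
Log2 fold change (horizontal axis) of the tested genes of 14 lists outside the 10 genes, for SFN compared to control (orange) and DAC+SFN compared to DAC (purple), with the number tested beside each list. Filled points passed an adjusted p under 0.05, which 5 of 10 genes of cGMP signalling did upwards with SFN, against 8.27% of all genes.

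Neural, secretory and glial genes outside the 10 gave mixed counts. Of the 11 pan-neuronal genes tested, 2 rose in each comparison, Tubb3 (0.26 and 0.25) and Syt4 (0.24 and 0.33), and 0 fell. Rest, the repressor of neuronal genes, rose by 0.23 with the combination compared to DAC (adjusted p = 0.0374), and its partner Rcor1 fell by 0.25 with SFN. Among 9 genes of regulated secretion, 4 rose and 2 fell in each comparison, and the genes that fell differed in part. The vesicular amine transporter Slc18a1 (0.59 and 0.85) and the prohormone carboxypeptidase Cpe (0.58, adjusted p = 3.08e-05, and 0.44) rose, and with SFN the granule effector Sytl2 fell by 0.56 (adjusted p = 0.000179) and the melanosome and granule GTPase Rab27a fell by 0.28. With the combination compared to DAC, Sytl2 fell by 0.35 and its relative Sytl4 by 0.60. Of 9 Schwann and glial genes, Mal (0.92), Pmp22 (0.40) and S100b (0.31) rose with SFN and Gfap fell by 0.87. With the combination compared to DAC, Pmp22 (0.42), Erbb3 (0.42) and S100b (0.38) rose and Mbp fell by 0.37, while Mal at 0.31 (adjusted p = 0.522) and Gfap at -0.53 (adjusted p = 0.0544) did not pass.

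Markers of other cells gave these values beside the increases of the 10 genes. The summed leukocyte markers lay between 2.36 and 4.78 CPM in control, 3.93 and 5.93 after DAC, 6.16 and 9.03 after SFN, and 8.31 and 11.2 after combination treatment. That sum follows Cd68, a lysosomal gene that other cells also express, which rose by 1.11 with SFN (adjusted p = 0.000729) and by 0.94 with the combination compared to DAC (adjusted p = 0.0017), while the defining leukocyte gene Ptprc never exceeded 2 counts and Adgre1 was at 0. Fibroblast markers varied between 20.2 and 321 CPM within control alone, with Dcn at no more than 1 count and Lum at no more than 3. With SFN, Pdgfra fell by 0.84 (adjusted p = 0.024) and Col1a2 stood at -0.77 (adjusted p = 0.0525). With the combination compared to DAC, Col1a2 fell by 0.71 (adjusted p = 0.0493) and Pdgfra stood at -0.24 (adjusted p = 0.55). The part of these cell types in the increases was not tested. The stress genes kept as a reference, which were left out of the choice of the 10, rose in 9 of 10 genes in each comparison, with medians of 0.95 and 0.94.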

How the data were processed

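RNA was sequenced from 12 libraries of B16F10 cells, 3 for each of control, DAC, SFN and DAC+SFN, and groups and replicate numbers were taken from the sample titles. The authors deposited raw read counts per gene symbol for each library. The submitters' processing notes and the methods name FastQC 0.11.7, Trimmomatic 0.38, TopHat2 2.1.1 and HTSeq on mm10, with uniquely aligned reads counted, and the gene annotation and strand setting of the counting are not given in the sources used here. Libraries held 15880957 to 27291436 counts, so low genes carry wide errors.

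Genes with at least 1 CPM in 3 libraries were kept (11638), scaled by TMM and tested with the quasi-likelihood test of edgeR 4.0.16 in R 4.3.3 (two-sided, Benjamini-Hochberg over all genes tested), with all 12 libraries in 1 model. Since the methods correct for a batch, the model held a block for the replicate number. Deviations from the group means correlated at a mean of 0.544 (0.270 to 0.732, 18 pairs) between libraries of the same number and -0.267 (36 pairs) between others. Since deviations within a group cancel out, the second value is tied to the first and is no separate evidence for the block. The numbers also follow the library numbers in the labels. A gene was called at an adjusted p under 0.05 and, where stated, a fold above 2. SE refers to the log2 fold change. Fits used a prior count of 0.125 and replicate differences a prior count of 2. No 2 replicates of a group were copies (chi-square of 13.2 to 35.9 per gene). The 10 genes and the lists of related genes and markers were chosen with earlier results of these data known. Of the lists, genes called in either SFN comparison were named, up to 4 a list by size of change, with relatives of the 10 genes, markers, and the genes closest in profile. All 314 list symbols were found, 6 through older symbols. Lists were described by counts, and no set test was run. Positions and exon lengths came from GENCODE M21 and promoters from RefSeq, both on mm10. Alternatives were DESeq2 1.42.0, its size factors in edgeR, the edgeR version 4 fit, a glmTreat fit and a prior count of 2. Others were different filters, no block, only the libraries compared, and each library left out. The fits were tested on simulated data. Plots were drawn with matplotlib 3.10.9. Some results for single genes are left out.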

Additional observations from a re-analysis of the deposited data

How the results depend on the processing

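The counts depended on the replicate block. Without the replicate block, genes of the 10 past both thresholds fell from 10 to 2 for SFN compared to control and from 7 to 1 for DAC+SFN compared to DAC, and related genes called fell from 25 and 22 to 0 and 0 in these comparisons. Requiring 10 counts in every library left 6 of the 10 genes in the fit, and 6, 4 and 6 passed for SFN compared to control, DAC+SFN compared to DAC and DAC+SFN compared to control. Testing against a 2-fold change itself (glmTreat) left 2, 0 and 6. For DAC compared to control the count of 0 became 2 with DESeq2, 3 with no filter and 2 with only the libraries compared, and for DAC+SFN compared to SFN it became 1 with no fold threshold. Asking for a fold above 2 left 2 and 1 of the related genes. With each library left out in turn, the counts of the 10 genes ranged from 8 to 9 for SFN compared to control, 4 to 8 for DAC+SFN compared to DAC, 0 to 2 for DAC, 0 to 1 for DAC+SFN compared to SFN and 8 to 10 for DAC+SFN compared to control, and related genes from 14 to 20 and 13 to 22. No called value changed sign in the alternatives run, and Prkg2 in DAC+SFN compared to SFN, which was not called (0.09), turned to -0.01 without the replicate block and -0.09 without SFN replicate 1. Of 130 values of single genes in DAC+SFN compared to DAC, 110 kept their side of the threshold and 20 lost it. Counts below 20 in every control library limit the precision for Hdc, Gpr176, Tmem59l and Apod. Part of the control libraries also lay below 20 for Slc17a8, Ptchd1 and Prkg2, with lowest counts of 1, 11 and 9.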
